A study of Mus musculus with 31 samples.

Results

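Rsad2, Cmpk2, Isg15, Usp18, Ifi44, Bst2, Xaf1, Rtp4, Ifi27 and Tnfsf10 are 10 mouse genes that interferon induces and whose products carry out its effects in the cell. The genes were listed by symbol, and 10 of 10 were found in both count tables, among 55288 gene identifiers in all (35275 in the table of the insulin experiment and 54532 in that of the ERRα3SA experiment). Rsad2 and Cmpk2 were put on the list as neighbours already reported as raised in both ERRα3SA tissues, so their direction there is no independent evidence. The study itself names Rsad2 and Tnfsf10, with Ifit1, Irf7 and Oasl1, among genes raised in ERRα3SA liver. Among genes changed in that liver and also regulated by insulin, it found viral defence and interferon signalling the most enriched. It also measured the mRNA of these genes apart from the sequencing, and reports that C29, a drug that inhibits ERRα, reversed the rise of Rsad2 and Tnfsf10 in ERRα3SA mice on a high-fat diet.

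Type I and type III interferons bind receptors whose JAK kinases activate ISGF3, a transcription factor complex that binds interferon-stimulated response elements beside its target genes. Some targets are switched on by IRF3, IRF7 or IRF1 without ISGF3, and several of the proteins made block steps of virus replication while others, such as USP18, damp the receptor. Hepatocytes, endothelial cells and Kupffer cells of the liver all respond to interferon, and a weak tonic signal keeps such genes on in uninfected tissue.

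The study asked how ERRα, an orphan nuclear receptor encoded by Esrra, takes part in the action of insulin on liver, and what follows in mice whose ERRα cannot be phosphorylated at 3 serines. RNA of whole tissue was sequenced in paired reads, and counts per gene were deposited for 23 livers and 8 muscles. The insulin experiment held livers of WT and ERRα KO mice (the gene is deleted in the germ line, so in every cell) of strain C57BL/6N, which fasted for 12 h and then got saline or 1 unit/kg insulin into the peritoneum. It has 4 samples for each of WT saline, WT insulin and ERRα KO saline, and 3 for ERRα KO insulin (replicates 1, 2 and 4). The ERRα3SA experiment held liver and skeletal muscle (gastrocnemius and soleus) of WT and ERRα3SA littermates, also C57BL/6N, with 4 samples per tissue and genotype. No injection or fast is stated for these sequenced mice. ERRα3SA mice carry 3 serine-to-alanine changes in both germ line copies of Esrra, made by CRISPR/Cas9. The methods state young adult males matched for age on a standard diet as the default for all mice of the study. Total counts per sample ran from 35871419 to 48317108 in the insulin experiment and from 20481405 to 33412022 in the ERRα3SA experiment. The labels list every replicate as a separate sample, so a p value measures spread between these samples, and each table was normalized on its own, so tests were run within a table only.

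Esrra, at chr19:6910977-6921813 of mm10, was read first as a check of the labels. Its level is given as CPM (read counts scaled by the TMM library size). In WT livers it stood at 32.2, 51.3, 42.7 and 40.6 CPM after saline and at 53.8, 96.1, 56.0 and 59.0 CPM after insulin. In ERRα KO livers it stood at 1.63, 0.703, 1.15 and 1.04 CPM after saline and at 0.833, 0.576 and 0.299 CPM after insulin, or 11 to 62 reads against 1246 to 3400 in WT. The KO and WT livers did not overlap in any of these samples, and the log2 fold change was -5.20 after saline (SE 0.24, adjusted p 2.58e-06 by the edgeR quasi-likelihood test with Benjamini-Hochberg adjustment), while after insulin it was -6.86 (SE 0.37, adjusted p 3.55e-05). A change of serines leaves the mRNA in place, so Esrra mRNA is no check of the ERRα3SA label. It differed little in liver (log2 fold change -0.24, p 0.0780, not called), while the ERRα3SA muscles had 23.6, 135, 128 and 100.1 CPM against 67.2 to 90.5 CPM in WT muscles.

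The tissue labels were read against fixed markers. The summed level of 6 hepatocyte markers was 54589.6 to 104725 CPM in the 23 livers, with Alb the most abundant and none at 0, and 8.15 to 18.6 CPM in the 8 muscles, with Cyp2e1 the most abundant and 1 to 4 of the 6 at 0. The summed level of 6 skeletal fibre markers was 85811.6 to 178676 CPM in the muscles, with Myh4 the most abundant, and at most 15.3 CPM in the livers except for WT insulin replicate 3 with 109.9 CPM (Myh1 the most abundant). ERRα3SA muscle replicate 1 stands apart from the other muscles. It has 19.3% of its counts on the mitochondrial genome against 9.15 to 10.8% in the other muscles, the highest fibre sum (178676 CPM), 16984 genes with a count against 19794 to 20878, and the lowest Esrra. Counts of called genes on the lists and the correlations in muscle are given with and without it. WT insulin liver replicate 2 has 1.88% of its counts on the mitochondrial genome, against 3.14 to 4.82% in the other livers of its experiment, and ERRα3SA liver replicate 4 has the lowest hepatocyte sum (54589.6 CPM).

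RefSeq (build GRCm38.p6) gave a window of 250 bases before to 50 after the start for 7 of the 10 genes, all but Usp18, Rtp4 and Ifi27. The 150 bases before the start are printed for the neighbours Rsad2 and Cmpk2, since the results set them side by side, and for Isg15 and Bst2, which carry the longest runs of the response element. Capitals mark GAAANNGAAA, the core of the interferon-stimulated response element, or its reverse complement, and each strand is read 5′ to 3′ toward the gene. Rsad2 is taken from the minus strand of chr12:26456453-26456602, Cmpk2 from the plus strand of chr12:26469065-26469214, Isg15 from the minus strand of chr4:156200819-156200968 and Bst2 from the minus strand of chr8:71537473-71537622.
Rsad2: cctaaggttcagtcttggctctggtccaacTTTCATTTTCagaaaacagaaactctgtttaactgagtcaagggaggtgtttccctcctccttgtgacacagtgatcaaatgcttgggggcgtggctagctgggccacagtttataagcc
Cmpk2: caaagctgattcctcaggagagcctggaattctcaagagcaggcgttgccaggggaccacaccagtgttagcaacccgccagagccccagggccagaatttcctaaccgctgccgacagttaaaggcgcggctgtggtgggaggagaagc
Isg15: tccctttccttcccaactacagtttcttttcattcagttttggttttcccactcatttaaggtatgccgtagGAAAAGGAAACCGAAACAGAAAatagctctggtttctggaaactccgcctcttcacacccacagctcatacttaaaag
Bst2: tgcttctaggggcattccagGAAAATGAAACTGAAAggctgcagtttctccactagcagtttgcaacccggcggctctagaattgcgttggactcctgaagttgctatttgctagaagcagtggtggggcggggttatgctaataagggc

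GAAANNGAAA lies in 3.44% of 32851 promoter windows, counted on both strands, and in 3 of the 7 here. Isg15 has it 3 times in overlapping steps on the gene strand (positions -78 to -69, -72 to -63 and -66 to -57 from the start), Bst2 has it at -130 to -121 and at -124 to -115 on the gene strand, and Rsad2 has it once, at -120 to -111 on the other strand. AANNGAAA, the shorter IRF core, is the last 8 letters of that motif and so counts again at each of its matches; it lies in 23.9% of all windows and in 6 of the 7 (Rsad2, Isg15, Ifi44, Bst2, Xaf1 and Tnfsf10), and Cmpk2 is the one without it. AAGGTCA, the core of the site that ERRα binds, lies in 4.72% of all windows and here in Tnfsf10 (6 to 12 after the start, other strand). A match is a description of the letters, and binding was not measured.

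Rsad2 (ENSMUSG00000020641, chr12:26442746-26456452, minus strand) and Cmpk2 (ENSMUSG00000020638, chr12:26469204-26479837, plus strand) are divergent neighbours whose starts are 12752 bases apart. Isg15 (ENSMUSG00000035692, chr4:156199424-156200818) shares 95.2% identity over 482 bases with the predicted gene AC151275.1, which had 0 to 4 counts per sample in the ERRα3SA table. Usp18 (ENSMUSG00000030107, chr6:121245906-121270917) shares 124 exon bases with Gm44148 on the opposite strand, which had 0 to 5 counts. Rtp4 (ENSMUSG00000033355, chr16:23520291-23614222) spans part of Masp1 on the opposite strand, with 0 shared exon bases, 3234 to 6449 Masp1 counts in the insulin livers and 73 to 5958 in the ERRα3SA experiment. It also holds 296 bases that are 100% identical to Gm45338 on the same strand, which had 7 to 161 counts. How reads were assigned in these places, and whether counting used the strand, is not stated, so the values of Isg15, Usp18 and Rtp4 are uncertain to that extent. Ifi44 (ENSMUSG00000028037, chr3:151730922-151749960), Bst2 (ENSMUSG00000046718, chr8:71534255-71537456), Xaf1 (ENSMUSG00000040483, chr11:72301629-72313733), Ifi27 (ENSMUSG00000064215, chr12:103434211-103440239) and Tnfsf10 (ENSMUSG00000039304, chr3:27317028-27342427) had no overlapping gene or near copy under the limits used.

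Levels between genes were compared as CPM per kb of exon, mean ± SD over the samples of a group. In WT liver of the ERRα3SA experiment (n = 4) Bst2, which tethers budding virions to the cell surface, was the most abundant of the 10 with 163 ± 16.9 CPM per kb. Ifi27, a small membrane protein of mitochondria and the nuclear envelope, followed with 75.8 ± 13.7 and Isg15, a ubiquitin-like modifier, with 16.8 ± 7.27 CPM per kb. Rtp4, a chaperone of some receptors on their way to the cell surface, had 8.16 ± 1.88 CPM per kb. Usp18 (4.22 ± 2.56), Rsad2 (4.10 ± 1.74) and Cmpk2 (3.01 ± 1.28) did not differ from each other beyond their spread, nor did Tnfsf10 (1.32 ± 0.193), Xaf1 (1.16 ± 0.370) and Ifi44 (1.00 ± 0.562). The order in ERRα3SA liver was the same down to Cmpk2, and Ifi44 (3.999 ± 3.18 CPM per kb), Xaf1 (2.03 ± 0.366) and Tnfsf10 (1.65 ± 0.237) did not differ beyond their spread there either.

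WT muscle had a different order. Ifi27 led with 11.5 ± 1.24 CPM per kb, ahead of Bst2 with 6.66 ± 1.09 CPM per kb. Tnfsf10 (1.61 ± 0.333), Rtp4 (1.14 ± 0.342) and Isg15 (0.897 ± 0.446) followed and overlap in spread, as do Cmpk2 (0.675 ± 0.0623), Rsad2 (0.673 ± 0.0714) and Usp18 (0.625 ± 0.150), and Xaf1 (0.392 ± 0.0346) and Ifi44 (0.191 ± 0.0659) were lowest. ERRα3SA muscle began in the same order with Ifi27 at 13.2 ± 6.35 and Bst2 at 9.52 ± 4.12 CPM per kb, which overlap. The livers of the insulin experiment were normalized in another table, so its levels are set beside the others without a test. After saline, WT livers had 61.4 ± 6.61 CPM per kb of Bst2 and 26.6 ± 4.55 of Ifi27, then Isg15 (4.34 ± 1.89) and Rsad2 (3.998 ± 0.919), with Xaf1 (0.352 ± 0.158) and Ifi44 (0.233 ± 0.0986) last. In ERRα KO livers Bst2 (59.1 ± 9.63) and Ifi27 (57.6 ± 20.1) stood at like levels after saline, and after insulin Ifi27 (61.5 ± 6.35, n = 3) was above Bst2 (52.9 ± 0.488).

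**Figure D1:**
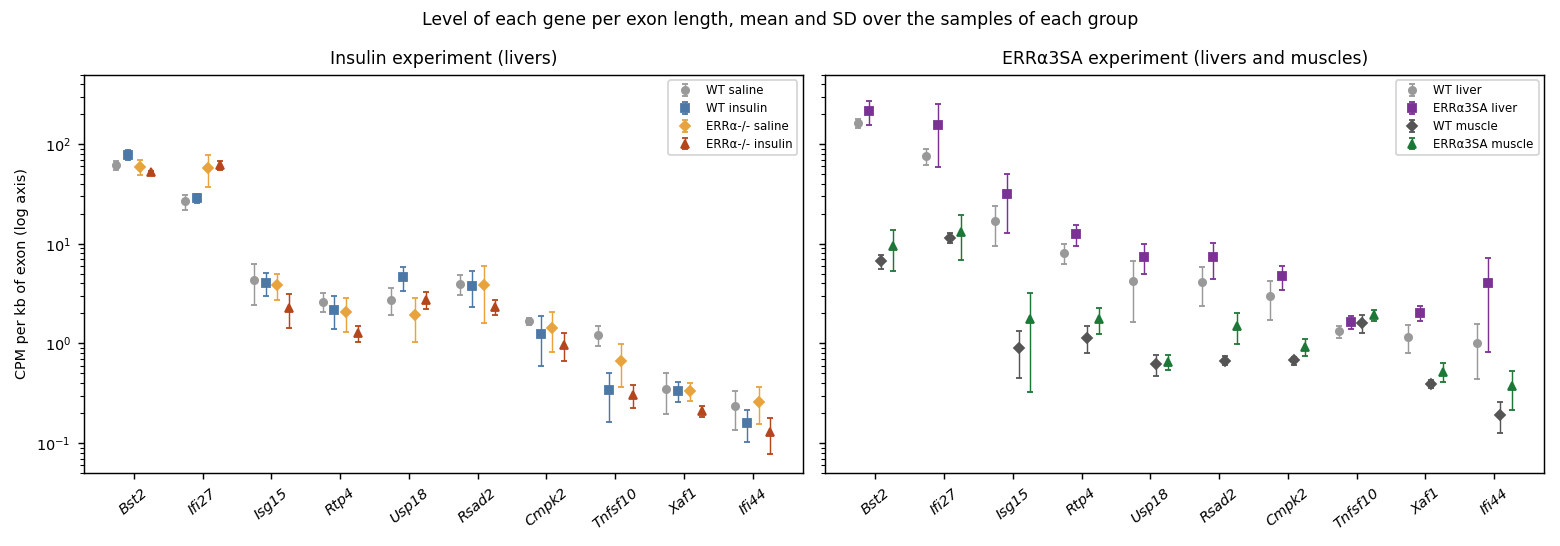
Level of each of the 10 genes as CPM per kb of exon (log axis) in the 8 groups of both experiments, points for group means and bars for 1 SD. Bst2 and Ifi27 head every group.

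The comparison of ERRα3SA with WT liver asks what the changed serines of ERRα do to liver RNA. A gene is called here when its unadjusted p is under 0.05 and its fold change at least 1.2, the study's own rule, and the p adjusted over all genes tested is given beside it. All 10 genes passed the filter on low counts in this and every other comparison, and all 10 had a positive log2 fold change here. No gene of the whole table passed an adjusted p of 0.05, so what follows rests on unadjusted p values. In bulk tissue, a change in the number of cells of a type and a change in RNA per cell cannot be told apart.

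Viperin, the product of Rsad2, is a radical SAM enzyme that turns CTP into the chain terminator ddhCTP. Rsad2 stood at 19.5, 11.5, 27.8 and 12.4 CPM in WT livers 1 to 4 and at 37.2, 44.1, 29.6 and 15.6 CPM in ERRα3SA livers 1 to 4. ERRα3SA livers 1, 2 and 3 lie above every WT liver and replicate 4 lies inside the WT range, so the groups overlap. Rsad2 rose with a log2 fold change of +0.85 (SE 0.34, p 0.0320, adjusted p 0.639). Its neighbour Cmpk2 encodes a mitochondrial kinase that phosphorylates CMP and UMP toward CTP. Cmpk2 stood at 13.6, 7.67, 19.5 and 9.23 CPM in WT livers and at 23.04, 25.4, 16.98 and 13.5 CPM in ERRα3SA livers. Replicates 1 and 2 lie above all WT livers, the other two lie within the WT range, and Cmpk2 rose by the same rule (+0.68, SE 0.29, p 0.0426, adjusted p 0.651).

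ISG15 is joined to new proteins as a tag, and USP18 takes it off again and blocks the interferon receptor. Isg15 stood at 13.4, 7.39, 20.1 and 9.88 CPM in WT livers and at 41.0, 30.7, 12.0 and 12.6 CPM in ERRα3SA livers. Replicates 1 and 2 are above the WT range and replicates 3 and 4 in its middle, and Isg15 was the one gene of the 10 not called (log2 fold change +0.94, SE 0.43, p 0.0539). Usp18 stood at 9.24, 7.20, 22.4 and 8.23 CPM in WT livers and at 24.5, 28.8, 14.6 and 15.3 CPM in ERRα3SA livers. WT liver 3 is far above the other WT livers and above ERRα3SA livers 3 and 4. Usp18 was called (+0.84, SE 0.37, p 0.0470, adjusted p 0.663), and DESeq2 gave a p of 0.0651.

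Ifi44 encodes a cytoplasmic protein tied to the restraint of virus growth. Ifi44 stood at 7.42, 3.50, 10.4 and 3.22 CPM in WT livers and at 46.2, 35.4, 10.7 and 5.66 CPM in ERRα3SA livers. Replicates 1 and 2 lie far above all WT livers, replicate 3 just above the highest and replicate 4 among them. The log2 fold change of +2.01 (SE 0.63, p 0.0100, adjusted p 0.574) was the largest of the 10. Ifi27 stood at 115, 91.9, 138 and 100.2 CPM in WT livers and at 387, 318, 120.4 and 98.2 CPM in ERRα3SA livers, again with replicates 1 and 2 high and the other two inside the WT range (+1.07, SE 0.40, p 0.0236, adjusted p 0.629).

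Bst2 stood at 149, 130.2, 167 and 142 CPM in WT livers and at 253, 221, 153 and 148 CPM in ERRα3SA livers, with replicates 1 and 2 alone above the WT range (log2 fold change +0.41, SE 0.17, p 0.0388). Rtp4 stood at 17.5, 14.0, 22.95 and 15.1 CPM in WT livers and at 31.1, 31.7, 18.4 and 24.8 CPM in ERRα3SA livers. Only replicate 3 falls inside the WT range, and Rtp4 rose with a log2 fold change of +0.63 (SE 0.20, p 0.0110, adjusted p 0.581). Xaf1, whose product binds XIAP and favours cell death, stood at 5.26, 4.09, 7.96 and 4.53 CPM in WT livers and at 10.8, 10.3, 7.001 and 10.1 CPM in ERRα3SA livers. Here too replicate 3 alone overlaps WT, and Xaf1 had the lowest p of the 10 (+0.83, SE 0.22, p 0.00409, adjusted p 0.528). Tnfsf10 encodes TRAIL, the ligand of a death receptor. It stood at 6.17, 6.76, 8.43 and 6.44 CPM in WT livers and at 9.56, 9.35, 6.85 and 8.98 CPM in ERRα3SA livers, where replicate 3 alone overlaps WT (+0.34, SE 0.15, p 0.0472).

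**Figure D2:**
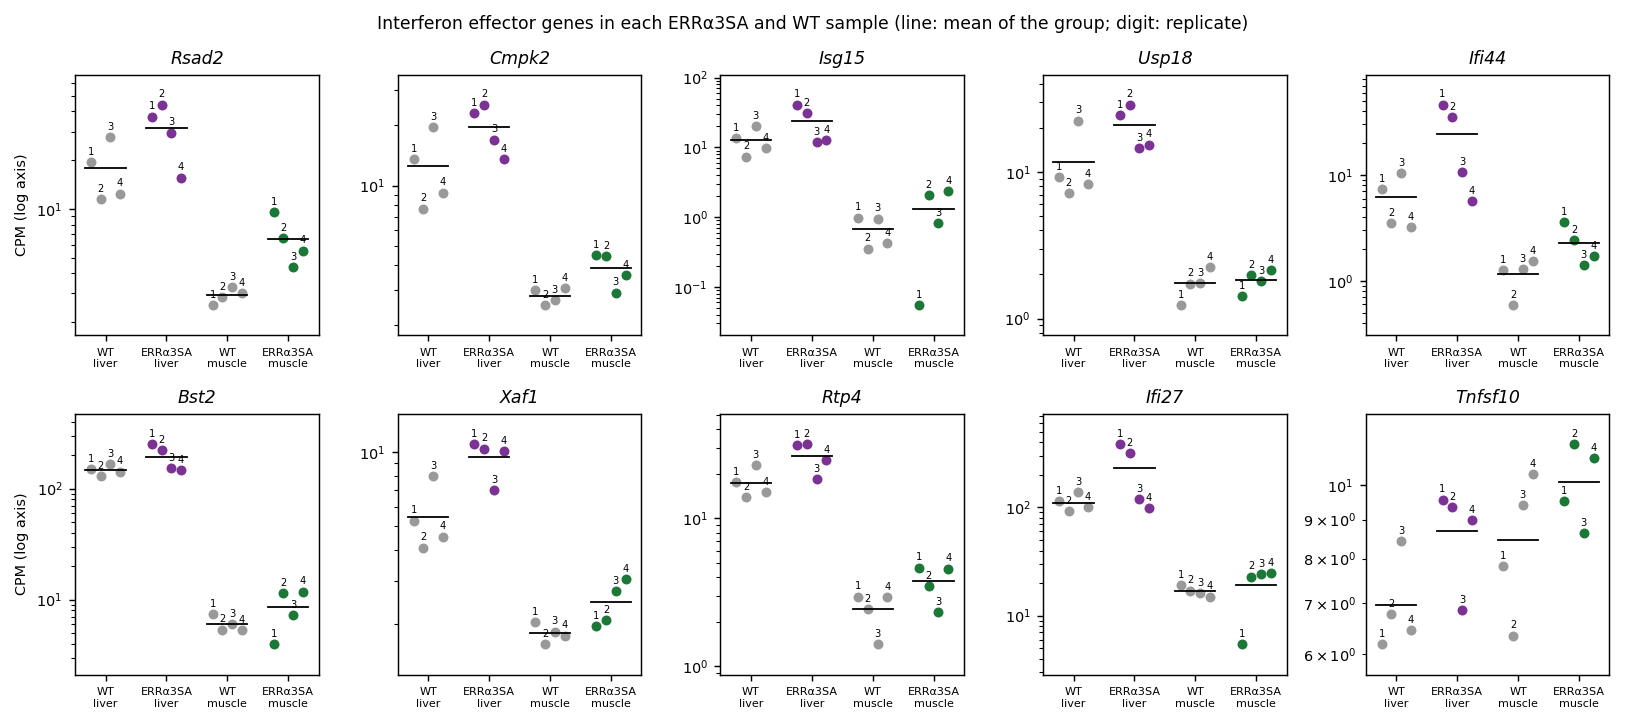
CPM of each gene (log axis, 1 panel per gene) in WT and ERRα3SA livers and muscles, digits for replicates and lines for group means. ERRα3SA livers 1 and 2 lie above every WT liver in all 10 panels, and Rsad2 is the panel whose muscle groups are apart.

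In all, 9 of 10 genes were called higher and 0 lower, and of the 8 other than Rsad2 and Cmpk2, 7 were called (median log2 fold change +0.83). Tnfsf10 is 1 of these 7 and is named by the study as raised in this liver, so that count is not free of earlier results either. Over all 13339 genes tested the same rule called 4.88% in either direction and 2.5% higher, and an adjusted p under 0.05 was reached by 0% of all genes and 0 of the 10 in edgeR and by 0 of the 10 in DESeq2, which called 8 by the study's rule. The median log2 fold change of the 10 was +0.83 against -0.00 over all genes. ERRα3SA replicates 1 and 2 lay above the WT range for 10 of 10 genes, replicate 3 for 2 and replicate 4 for 3, and WT replicate 3 was the highest WT liver for all 10. The count depends on single livers. Without WT replicate 1 it was 4 (Ifi44, Xaf1, Rtp4 and Ifi27). Without WT replicate 2, WT replicate 4, ERRα3SA replicate 1 or ERRα3SA replicate 2 it was 3 each time (Ifi44, Xaf1 and Rtp4). Without WT replicate 3 or ERRα3SA replicate 3 it was 10, and without ERRα3SA replicate 4 it was 9, with Isg15 in and Tnfsf10 out. The share of all genes called in each of these fits is not given, so the counts cannot be read against it. Ifi44, Xaf1 and Rtp4 were called whichever of the 8 livers was left out. With all 8 kept, Tnfsf10 lost the call with library size alone, Bst2 and Tnfsf10 with all groups fitted together, and Bst2, Ifi27 and Tnfsf10 with the replicate block, while Isg15 gained it with no filter on low counts.

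The rest of the pathway was read from fixed lists with the 10 genes taken out. Of 77 other interferon-stimulated genes, 75 were tested and 51 called higher and 0 lower (median log2 fold change +0.49, against -0.00 over all genes), led by Oas1g (+2.38, p 0.00420), Oas1a (+1.70, p 0.00519) and Oasl2 (+1.42, p 0.00430). Ifit1, Irf7 and Oasl1 are on that list and among the genes the study names. The 51 fell to 33 without ERRα3SA replicate 1 and to 33 without ERRα3SA replicate 2, and the count lay between 35 and 57 without each of the other livers. Of 4 other genes of ISG15 conjugation, Herc6 (+0.54, p 0.0356) and Trim25 (+0.27, p 0.00308) were called higher. That count of 2 was 0 without WT replicate 2 or 4 or ERRα3SA replicate 1 or 2, 1 without WT replicate 1, 4 without ERRα3SA replicate 3 and 3 without ERRα3SA replicate 4.

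Upstream, Irf9 was called higher (log2 fold change +0.41, p 0.00497) on the list of receptors, JAK kinases and ISGF3 subunits. The 20 interferon genes of the ligand list were in the tables, and 0 passed the filter on low counts. Their summed counts were 0 to 3 per liver of this experiment and 0 in every muscle. None of 8 negative regulators of JAK-STAT signalling, of 13 TRAIL receptors and death partners or of 9 genes of CTP supply and iron-sulfur loading was called by edgeR in liver with all samples. Without ERRα3SA replicate 4, 2 negative regulators were called. Without WT replicate 2 or ERRα3SA replicate 2, 2 of the TRAIL list were, and without WT replicate 1, WT replicate 3 or ERRα3SA replicate 3, 1 of the CTP list was.

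Cell type markers were read beside these values. The summed level of 7 Kupffer cell and macrophage markers (Clec4f the most abundant, none at 0) was 229, 244, 251 and 237 CPM in WT livers and 276, 273, 252 and 315 CPM in ERRα3SA livers, above all WT livers in each, and Vsig4 was called higher (log2 fold change +0.29, p 0.0419). In the same order, ERRα3SA livers 1 to 4 had 10, 10, 2 and 3 of the 10 genes above the WT range. The 6 monocyte and neutrophil markers summed to 2.95 to 4.09 CPM in WT livers and to 3.03, 3.27, 2.53 and 7.67 CPM in ERRα3SA livers, with 1 of the 6 at 0 in each, and Ly6c2 was called higher of 4 tested. The 5 B and plasma cell markers summed to 3.53 to 6.09 CPM in WT and 2.62 to 3.13 CPM in ERRα3SA livers, and Cd79a was called lower. Of 4 cholangiocyte markers, Krt19, Krt7 and Epcam were called lower, with sums of 9.75 to 14.1 CPM in WT and 8.57 to 14.0 CPM in ERRα3SA livers (Sox9 the most abundant). Lyve1 of 6 endothelial markers (Kdr the most abundant) and Lrat of 6 stellate cell and fibroblast markers (Dcn the most abundant) were called higher. Of the hepatocyte, T and NK cell, plasmacytoid dendritic cell and erythroid markers tested, 6, 1, 1 and 5 genes, 0 were called by edgeR in this comparison, and no fibre or adipocyte marker was tested. The 5 plasmacytoid dendritic cell markers summed to 0.740 to 2.58 CPM in WT and to 11.1, 1.84, 1.74 and 0.935 CPM in ERRα3SA livers, with Klk1 the most abundant at 11.1. The part of any cell type in the difference of the 10 genes was not tested.

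The same question was asked of skeletal muscle, where Esrra mRNA is the more abundant of the tissues (67.2 to 90.5 CPM in WT muscles, 26.9 to 28.7 CPM in WT livers). All 10 log2 fold changes were positive again, and 3 genes were called. Rsad2 stood at 2.54, 2.84, 3.27 and 3.02 CPM in WT muscles and at 9.57, 6.56, 4.35 and 5.52 CPM in ERRα3SA muscles. Every ERRα3SA muscle lies above every WT muscle. Rsad2 rose with a log2 fold change of +1.17 (SE 0.26, p 0.00128, adjusted p 0.524), and it was called whichever of the 8 muscles was left out and under each alternative that kept all 8, with adjusted p values from 0.0127 (DESeq2) to 1.00. Cmpk2 stood at 3.00, 2.52, 2.66 and 3.06 CPM in WT and at 4.48, 4.45, 2.91 and 3.55 CPM in ERRα3SA muscles, where replicate 3 overlaps WT (+0.46, SE 0.20, p 0.0478). Ifi44 stood at 1.27, 0.591, 1.29 and 1.53 CPM in WT and at 3.61, 2.44, 1.41 and 1.73 CPM in ERRα3SA muscles, again with replicate 3 inside the WT range (+0.97, SE 0.39, p 0.0321).

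Over all 14081 genes tested in muscle the rule called 4.54% in either direction and 2.78% higher, while 3 of the 10 were called higher and 0 lower. Rsad2 and Cmpk2 are 2 of the 3, and of the other 8 genes 1 was called (Ifi44), with a median log2 fold change of +0.47. An adjusted p under 0.05 was reached by 0% of all genes and 0 of the 10 in edgeR, and DESeq2 called 3 of the 10, 1 of them at an adjusted p under 0.05. The median log2 fold change of the 10 was +0.49 against +0.02 over all genes. The other 7 genes had log2 fold changes of +0.08 (Usp18, p 0.741) to +0.98 (Isg15, p 0.205), with standard errors up to 0.72. ERRα3SA replicates 2 and 4 lay above the WT range for 9 of 10 genes each, replicate 3 for 3, and replicate 1 for 4 while it lay below for 3.

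ERRα3SA muscle replicate 1 is where several genes part company. Isg15 stood at 0.987, 0.354, 0.952 and 0.421 CPM in WT muscles and at 0.0547, 2.08, 0.818 and 2.37 CPM in ERRα3SA muscles, the 0.0547 being 1 read. Ifi27 stood at 19.3, 17.02, 16.1 and 15.03 CPM in WT and at 5.41, 22.96, 24.4 and 24.6 CPM in ERRα3SA muscles. Bst2 stood at 7.40, 5.36, 6.01 and 5.28 CPM in WT and at 3.94, 11.4, 7.27 and 11.8 CPM in ERRα3SA muscles. Replicate 1 is the lowest of all 8 muscles for these 3 genes and the highest of all 8 for Rsad2, Cmpk2, Ifi44 and Rtp4 (4.65 CPM). Without it, 17.4% of 14363 genes were called and 3.23% reached an adjusted p under 0.05. Of the 10, 5 were then called. Ifi27 had a log2 fold change of +0.51 (SE 0.10, adjusted p 0.0313), against +0.20 with it (p 0.599). Rsad2 had +0.91 (SE 0.18, adjusted p 0.0327). Bst2 (+0.75, adjusted p 0.0651), Isg15 (+1.36, p 0.0170) and Xaf1 (+0.50, p 0.0325) joined them, while Cmpk2 (+0.37, p 0.0764) and Ifi44 (+0.66, p 0.0784) were no longer called. These edgeR values rest on 3 ERRα3SA muscles, left after the choice to drop 1 whose values had been seen.

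Cmpk2 lost the call with library size alone and with no filter on low counts. With all groups fitted together and with the replicate block, Cmpk2 and Ifi44 lost it and Rtp4 was called. Other muscles moved the count of 3 too. It was 1 (Rsad2) without WT replicate 1, 2 or 3 or without ERRα3SA replicate 2, and 2 (Rsad2 and Ifi44) without WT replicate 4. It was 4 without ERRα3SA replicate 3, with Rtp4 added, and 3 without ERRα3SA replicate 4. Xaf1 stood at 2.04, 1.65, 1.86 and 1.80 CPM in WT and at 1.97, 2.08, 2.72 and 3.05 CPM in ERRα3SA muscles, with replicate 1 alone inside the WT range. Tnfsf10 stood at 7.83, 6.34, 9.40 and 10.3 CPM in WT and at 9.51, 11.3, 8.64 and 10.8 CPM in ERRα3SA muscles, and Usp18 at 1.23 to 2.26 CPM in WT and 1.42 to 2.13 CPM in ERRα3SA muscles. These last groups overlap widely, and neither gene was called.

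Of the other interferon-stimulated genes, 66 were tested in muscle, 5 were called higher and 2 lower (median log2 fold change +0.21). The named ones are Irf7 (+1.30, p 0.00288), Psmb8 (+0.89, p 0.0492) and Ly6a (+0.70, p 0.0167) with Gbp6 (-0.78, p 0.00525) and Igtp (-0.29, p 0.0471). The 7 became 12 without ERRα3SA replicate 1, 13 without ERRα3SA replicate 3 and 4 without WT replicate 2, 3 or 4. It was 2 with library size alone and 3 with the replicate block. Nme1, which makes CTP from CDP, was called higher (+0.44, p 0.0169) among 9 genes of CTP supply and iron-sulfur loading, and the count was 0 without WT replicate 3 and 2 without ERRα3SA replicate 1 or 3. Of 4 genes of ISG15 conjugation, 11 receptors, JAK kinases and ISGF3 subunits, 8 negative regulators and 13 TRAIL receptors and death partners, edgeR called 0 in muscle (DESeq2 called 1 of the first list), and without ERRα3SA replicate 1 it called 1, 2 and 1 of the first 3 lists, and without ERRα3SA replicate 3 it called 1 of the 8 negative regulators.

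Marker sums in muscle set ERRα3SA replicate 4 apart as well. The 7 macrophage markers (Csf1r the most abundant, 1 or 2 at 0) summed to 83.9 CPM there and to 25.1 to 34.9 CPM in the other muscles. The 6 monocyte and neutrophil markers (Ccr2 the most abundant, 1 to 3 at 0) summed to 49.6 CPM there and to 4.78 to 6.67 CPM elsewhere. The 6 stellate cell and fibroblast markers summed to 2856 CPM there, with Col3a1 the most abundant, and to 1020.5 to 1531 CPM elsewhere. Ccr2, Sox9 and Hba-a2 were called higher and Krt19 lower. ERRα3SA replicate 2 had the same number of genes above the WT range, 9, with 25.5 CPM of macrophage and 4.95 CPM of monocyte and neutrophil markers. The part of these cells in the difference was not tested.

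Whether the ERRα3SA effect differed between the tissues was tested as 1 term of a fit of both. The difference is the effect in muscle minus that in liver. edgeR called 0 of 10 genes, with p values from 0.128 (Usp18, log2 difference -0.77) to 0.957 (Isg15, +0.04), and DESeq2 called 0, while over all 15688 genes the rule called 5.57% and an adjusted p under 0.05 was reached by 0%. Without ERRα3SA muscle replicate 1 the rule called 2766 of 16019 genes in this contrast, 369 reached an adjusted p under 0.05, and 0 of the 10 were called. In edgeR without that muscle, Ifi44 had -1.39 (p 0.137) and Rsad2 +0.024 (p 0.956). With all samples kept, Ifi44 had -1.09 (p 0.207) and Rsad2 +0.29 (p 0.538). Without WT liver replicate 3, the highest WT liver for all 10 genes, Usp18 had -1.29 (p 0.00201) and Xaf1 -0.67 (p 0.0266), so 2 genes were called, and the count was 0 without each of the other 15 samples. That 9 genes were called in liver and 3 in muscle is therefore not shown to be a difference between the tissues. Of the other interferon-stimulated genes, 75 were tested in this contrast, 1 was called higher and 7 lower, and 16 of 75 log2 differences were positive (median -0.24, against 0.00 over all genes). No label tells if the liver and the muscle with the same number belong to 1 mouse.

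WT muscle and WT liver were compared to place the 2 tissues. Bst2 stood at 5.28 to 7.40 CPM in muscle and at 130.2 to 167 CPM in liver, with a log2 fold change of -4.58 (SE 0.11, adjusted p 5.55e-14). Isg15 stood at 0.354 to 0.987 CPM in muscle and at 7.39 to 20.1 CPM in liver (-4.17, SE 0.36, adjusted p 6.58e-08). For 9 of the 10 genes every WT muscle lay below every WT liver, the smallest such difference being Xaf1 (-1.54, SE 0.21, adjusted p 1.04e-05). Rtp4 (-2.80), Usp18 (-2.72), Ifi27 (-2.69), Rsad2 (-2.58), Ifi44 (-2.36) and Cmpk2 (-2.12) lay between. Tnfsf10 alone was not lower, with 6.34 to 10.3 CPM in muscle and 6.17 to 8.43 CPM in liver (+0.31, SE 0.15, p 0.0631, adjusted p 0.0719). Those 9 called genes, all lower, stand against 84.2% of 14886 genes called in either direction, 42.2% called lower and 86.5% at an adjusted p under 0.05. Tnfsf10 was called higher in DESeq2, with RLE factors, with library size alone, with no filter on low counts and with the replicate block. It was also called higher with a liver and a muscle of the same number taken as 1 mouse, and without WT liver replicate 3 or WT muscle replicate 2. Of the other interferon-stimulated genes, 59 of 74 were called lower and 6 higher.

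The insulin experiment asks what insulin does to the fasted liver and whether ERRα is needed for it. In WT livers, 3 of the 10 genes were called, 1 lower and 2 higher. Tnfsf10, the TRAIL gene, had the lowest p of the 10. It stood at 5.37, 5.31, 6.36 and 8.41 CPM after saline and at 0.585, 1.55, 2.56 and 2.42 CPM after insulin. All insulin livers lie below all saline livers. Tnfsf10 fell with a log2 fold change of -1.83 (SE 0.39, adjusted p 0.0303 by the edgeR quasi-likelihood test with Benjamini-Hochberg adjustment), lower in 4 of 4 samples, and it was called whichever of the 8 livers was left out. Its adjusted p ranged from 0.000123 to 0.112 over the alternatives.

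Usp18 stood at 4.37, 8.44, 9.92 and 8.08 CPM after saline and at 8.96, 12.9, 12.1 and 17.3 CPM after insulin, where replicate 1 lies among the saline livers. It rose (+0.74, SE 0.26, p 0.0168, adjusted p 0.175), but not without WT insulin replicate 4 (+0.56, p 0.0617). Bst2 stood at 60.6, 56.8, 57.5 and 46.8 CPM after saline and at 68.4, 81.9, 60.9 and 72.2 CPM after insulin, narrowly apart (+0.36, SE 0.13, p 0.0208, adjusted p 0.193). Bst2 was no longer called without WT saline replicate 4 (+0.28, p 0.0620) or without WT insulin replicate 2 (+0.28, p 0.0512). The other 7 genes had log2 fold changes of -0.56 (Ifi44, p 0.235) to +0.11 (Ifi27, p 0.457), and their groups overlap. Rsad2, for one, stood at 12.7, 17.03, 17.1 and 22.5 CPM after saline and at 11.6, 10.2, 23.1 and 21.1 CPM after insulin (-0.07, p 0.802). Isg15 reads 2.09 to 5.09 CPM after saline and 2.18 to 4.11 CPM after insulin (-0.10, p 0.767).

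Of 13463 genes tested in this comparison, 17.2% were called and 3.16% had an adjusted p under 0.05, beside 3 and 1 of the 10. Of 74 other interferon-stimulated genes tested, 1 was called higher and 18 lower, 4 genes at an adjusted p under 0.05, with a median log2 fold change of -0.28 against 0.00 over all genes. Usp18 and Bst2 thus went the other way from most called genes of that list. The count of 3 was 2 without WT saline replicate 4, WT insulin replicate 2 or WT insulin replicate 4.

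In ERRα KO livers insulin was followed by 3 called genes, all lower. Tnfsf10 stood at 2.05, 3.71, 2.70 and 5.73 CPM after saline and at 2.06, 1.40 and 1.33 CPM after insulin, where replicate 1 reaches the lowest saline liver. It fell (log2 fold change -1.15, SE 0.37, p 0.0104, adjusted p 0.127), and it was called whichever of the 7 livers was left out. Isg15 stood at 2.65, 2.35, 4.17 and 2.52 CPM after saline and at 1.64, 1.13 and 2.39 CPM after insulin (-0.77, SE 0.34, p 0.0443). Ifi44 stood at 1.65, 1.14, 2.46 and 1.08 CPM after saline and at 0.547, 1.13 and 0.679 CPM after insulin (-1.02, SE 0.45, p 0.0465). For both genes 1 insulin liver lies among the saline livers. Rtp4 just missed the call (-0.73, p 0.0506), and Xaf1 was apart in all samples, 1.21 to 1.96 CPM after saline and 0.841 to 1.09 CPM after insulin, without a call (-0.67, p 0.0869).

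Of 13684 genes, 17.2% were called in ERRα KO livers and 2.91% had an adjusted p under 0.05, beside 3 and 0 of the 10 in edgeR. DESeq2 called 4 of the 10, Rtp4 being the added one, with Tnfsf10 at an adjusted p of 0.0439. With the replicate block Isg15 and Ifi44 lost the call and Usp18 was called higher, and with all groups fitted together Isg15 lost it and Rtp4 was called. The median log2 fold change of the 10 was -0.70 against -0.02 over all genes, and among 73 other interferon-stimulated genes 31 were called lower and 1 higher (11 at an adjusted p under 0.05, median -0.43). Single livers decide the count of 3. It was 1 (Tnfsf10) without KO saline replicate 3 or without KO insulin replicate 1. It was 2 without KO saline replicate 1 (Tnfsf10 and Rtp4), KO insulin replicate 2 (Tnfsf10 and Ifi44) or KO insulin replicate 4 (Tnfsf10 and Isg15). It was 5 without KO saline replicate 2 (Rsad2 and Ifi27 added) and 4 without KO saline replicate 4 (Rsad2 added). Of 4 other genes of ISG15 conjugation 3 were called lower in ERRα KO livers and 0 of 4 in WT livers by edgeR. Of 11 receptors, JAK kinases and ISGF3 subunits 4 were called lower in KO and 2 in WT, and of the TRAIL receptors and death partners 4 of 13 in KO and 2 of 12 in WT. Of 7 negative regulators, 1 was called higher in KO and 0 in WT, and of 8 genes of CTP supply and iron-sulfur loading 1 was called lower in KO, against 2 higher and 1 lower in WT.

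**Figure D3:**
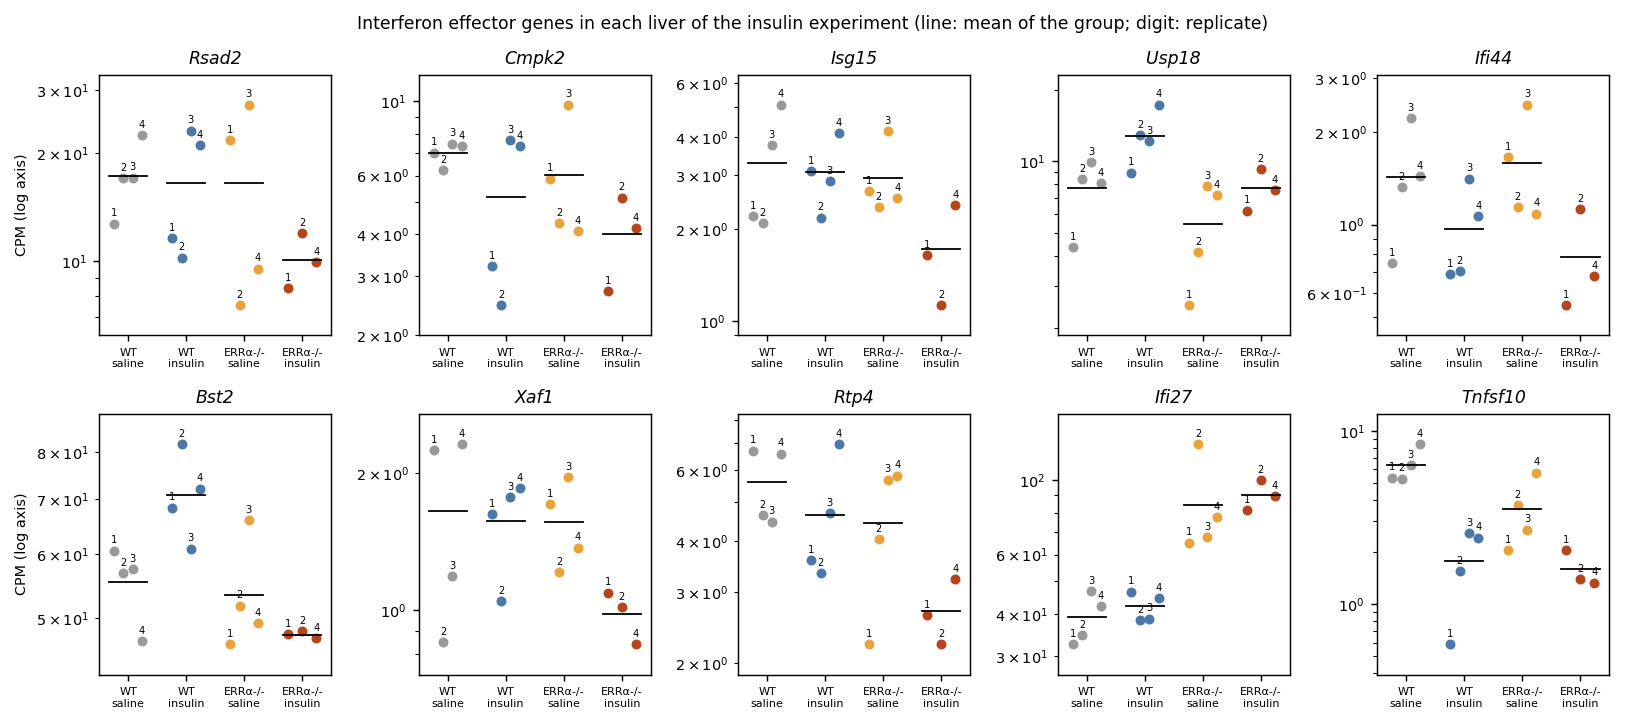
CPM of each gene (log axis, 1 panel per gene) in livers of WT and ERRα KO mice after saline or insulin, digits for replicates and lines for group means. Tnfsf10 is lower in WT after insulin in all 4 samples, and Ifi27 is higher in all 7 ERRα KO livers than in all 8 WT livers.

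Cell type markers changed with insulin as well. In WT livers Lrat (log2 fold change -0.88, adjusted p 0.0339, edgeR), Col3a1 (-0.68, p 0.0389) and Kdr (-0.60, p 0.0190) were called lower, and Tat (+0.85, p 0.00829), S100a8 (+2.44, p 0.0432) and Acta1 (+5.15, p 0.0161) higher. Fibre markers in WT livers after insulin are high in replicate 3 alone (a sum of 109.9 CPM, against at most 3.03 CPM in the others), and Acta1 had a median of 0.439 and a highest value of 30.4 CPM there. In ERRα KO livers Ccr2 (-1.42, p 0.00296) and Cd8a (-2.89, p 0.0383) were called lower, and Tat (+0.73, p 0.0101), Pdgfra (+0.43, p 0.0247) and Hba-a2 (+0.90, p 0.0342) higher. The part of these cells in the changes of the 10 genes was not tested.

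Whether insulin acted differently by genotype was tested as the interaction, the insulin effect in ERRα KO minus that in WT. Bst2 was the 1 gene of the 10 called, beside 8.79% of all 14670 genes. Its log2 levels moved up with insulin in WT (+0.36) and not in KO (-0.17, p 0.220), where it stood at 46.4, 51.8, 66.0 and 49.3 CPM after saline and at 47.8, 48.2 and 47.3 CPM after insulin. The interaction was -0.52 (SE 0.19, p 0.0124, adjusted p 0.500) and was called whichever of the 15 livers was left out and in DESeq2. An adjusted p under 0.05 was reached by 0% of all genes and by 0 of the 10 in edgeR, and by 0 of the 10 in DESeq2. Tnfsf10, called in both genotypes, had an interaction of +0.68 (p 0.245), Isg15 -0.67 (p 0.189), Rsad2 -0.65 (p 0.229), Usp18 -0.24 (p 0.613) and Ifi27 -0.02 (p 0.951). The calls of Isg15 and Ifi44 in KO and of Usp18 in WT are thus not shown to differ by genotype. Of 74 other interferon-stimulated genes 0 were called higher and 3 lower in the interaction. It called 0 of 4 genes of ISG15 conjugation, 1 of 12 receptors, JAK kinases and ISGF3 subunits, 0 of 8 negative regulators, 0 of 13 TRAIL receptors and death partners and 2 of 9 genes of CTP supply and iron-sulfur loading, so the list counts in KO and WT are not shown to differ either.

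ERRα KO and WT livers were compared after saline and after insulin. These comparisons share no samples with each other, but each shares its groups with the insulin comparisons above. Ifi27 stood at 32.5, 34.7, 46.9 and 42.2 CPM in WT livers after saline and at 65.1, 128, 67.6 and 77.5 CPM in KO livers after saline. After insulin it stood at 46.6, 38.4, 38.8 and 44.7 CPM in WT and at 81.2, 99.8 and 89.6 CPM in KO livers. Every KO liver lies above every WT liver. Ifi27 rose with a log2 fold change of +1.11 after saline (SE 0.21, p 0.000251, adjusted p 0.113) and +1.09 after insulin (SE 0.13, p 5.89e-06, adjusted p 0.0161), higher in 4 of 4 and 3 of 3 samples. It was called in both comparisons whichever liver was left out and under each alternative run, with adjusted p values from 8.53e-05 to 0.290 after saline and from 4.58e-10 to 0.191 after insulin.

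After saline, Tnfsf10 was lower in KO, with 2.05 to 5.73 CPM against 5.31 to 8.41 CPM in WT (log2 fold change -0.84, SE 0.30, p 0.0177, adjusted p 0.298). KO replicate 4 overlaps WT, and without WT saline replicate 4 the call was lost (-0.68, p 0.0612), leaving 1. Without KO saline replicate 3, Cmpk2 was called too (-0.56, p 0.0143), making 3. The 2 called genes, 1 higher and 1 lower, stand beside 11.3% of 13481 genes called and 0.0816% at an adjusted p under 0.05, where edgeR and DESeq2 both called 2 of the 10. The other 8 had log2 fold changes of -0.50 (Usp18, p 0.181) to +0.15 (Ifi44, p 0.726). Of 73 other interferon-stimulated genes 3 were called higher and 11 lower.

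After insulin, 6 of the 10 genes were called between KO and WT, 1 higher and 5 lower, beside 9.99% of 13665 genes in either direction, 5.42% lower and 0.0585% at an adjusted p under 0.05. Bst2 stood at 47.8, 48.2 and 47.3 CPM in KO livers and at 68.4, 81.9, 60.9 and 72.2 CPM in WT livers, with no overlap (log2 fold change -0.58, SE 0.13, p 0.00127, adjusted p 0.167). Rtp4 stood at 2.63, 2.22 and 3.23 CPM in KO and at 3.59, 3.33, 4.71 and 6.98 CPM in WT livers, also without overlap (-0.80, SE 0.31, p 0.0278). Usp18 stood at 6.22, 9.28 and 7.60 CPM in KO and at 8.96 to 17.3 CPM in WT (-0.75, SE 0.24, p 0.0103). Rsad2 (8.41, 12.0 and 9.93 CPM in KO, -0.72, p 0.0322) and Isg15 (1.64, 1.13 and 2.39 CPM in KO, -0.84, p 0.0366) each overlap WT by 1 KO liver. Cmpk2, Ifi44, Xaf1 and Tnfsf10 were not called, with p values from 0.107 to 0.733.

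Bst2 and Ifi27 were called whichever of the 7 livers was left out, and the others were not. The 6 became 2 (Bst2 and Ifi27) without KO insulin replicate 1, 3 (with Usp18) without WT insulin replicate 4, 4 without WT insulin replicate 3 (Usp18, Bst2, Rtp4 and Ifi27) and 4 without KO insulin replicate 2 (Rsad2, Usp18, Bst2 and Ifi27). It was 5 without WT insulin replicate 1 (Isg15 lost) or KO insulin replicate 4 (Rsad2 lost), and 7 without WT insulin replicate 2, with Xaf1 added. DESeq2 called 6, and Rsad2 lost the call with all groups fitted together and with the replicate block. Of 73 other interferon-stimulated genes 8 were called lower and 1 higher. Kupffer cell and macrophage sums were 129, 259, 169.8 and 185 CPM in WT and 135, 133, 136 and 151 CPM in KO livers after saline, with Adgre1, Csf1r and Vsig4 called lower and Clec4f the most abundant. After insulin they were 189, 182, 116 and 152 CPM in WT and 125, 159 and 195 CPM in KO livers, with Marco called higher. Cd4 and Pdgfra were called higher in KO in both comparisons. After saline, Ccr2 and Tat were also called higher and Kdr, Col1a1 and Alas2 lower, and after insulin Cdh5 and Serpina1c were called higher and Myh4 lower, a fibre marker with a median of 0.545 and a highest value of 19.3 CPM in the WT livers. Their part in the differences of the 10 genes was not tested.

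Ifi27l2b, chosen after its values were seen, lies on the minus strand 10.659 kb from the nearer edge of Ifi27 (chr12:103450898-103457223) and encodes a relative of it. It had 2.29 ± 1.21 CPM in WT and 5.62 ± 0.580 CPM in KO livers after saline (SD, n = 4 each), and 2.56 ± 1.56 CPM (n = 4) and 10.04 ± 2.36 CPM (n = 3) after insulin. Its KO against WT log2 fold change was +1.30 after saline (adjusted p 0.181, edgeR) and +1.96 after insulin (adjusted p 0.167, edgeR). In ERRα3SA liver it had +1.23 (p 0.00388). Ifi27l2a, 1.928 kb from Ifi27, was called in none of these 3 comparisons by edgeR.

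**Figure D4:**
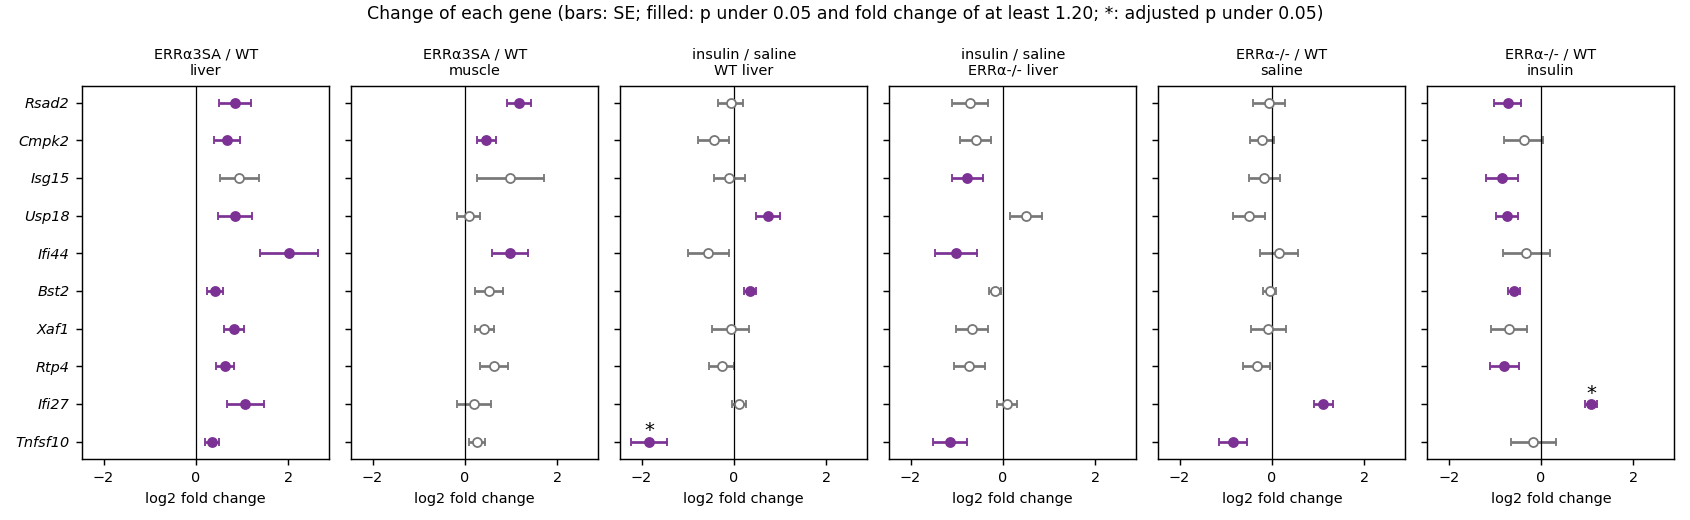
Log2 fold change of each gene with 1 SE in 6 comparisons, filled points for an unadjusted p under 0.05 with a fold change of at least 1.2 and stars for an adjusted p under 0.05. All 10 points lie above 0 in both ERRα3SA comparisons, and the stars are Tnfsf10 with insulin in WT and Ifi27 in KO against WT after insulin.

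How the 10 genes vary together within groups was read from log2 CPM minus the mean of the sample's group, over the 23 livers of both tables and over the 8 muscles. These values share each sample's depth and tissue piece, and the correlations are descriptions. Of the 5 pairs looked at, Rsad2 with Cmpk2 had the highest Pearson r in livers (0.87) and 0.74 in muscles. Isg15 and Ifi44 had 0.74 in livers and -0.33 in muscles. Isg15 with Ifi27 had 0.65 and 0.90, Isg15 with Usp18 0.59 and 0.37, and Rsad2 with Isg15 0.64 and -0.61. Without ERRα3SA replicate 1 (7 muscles), Rsad2 with Cmpk2 had 0.66 in muscle, Isg15 with Ifi44 0.56, Isg15 with Ifi27 0.28, Isg15 with Usp18 -0.28 and Rsad2 with Isg15 0.46. Against the mean of the other 9 genes, r in livers ran from 0.30 (Tnfsf10) to 0.81 (Isg15). ERRα KO saline replicate 3 was the highest of its group for 7 of 10 genes, and WT liver replicate 3 for all 10.

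**Figure D5:**
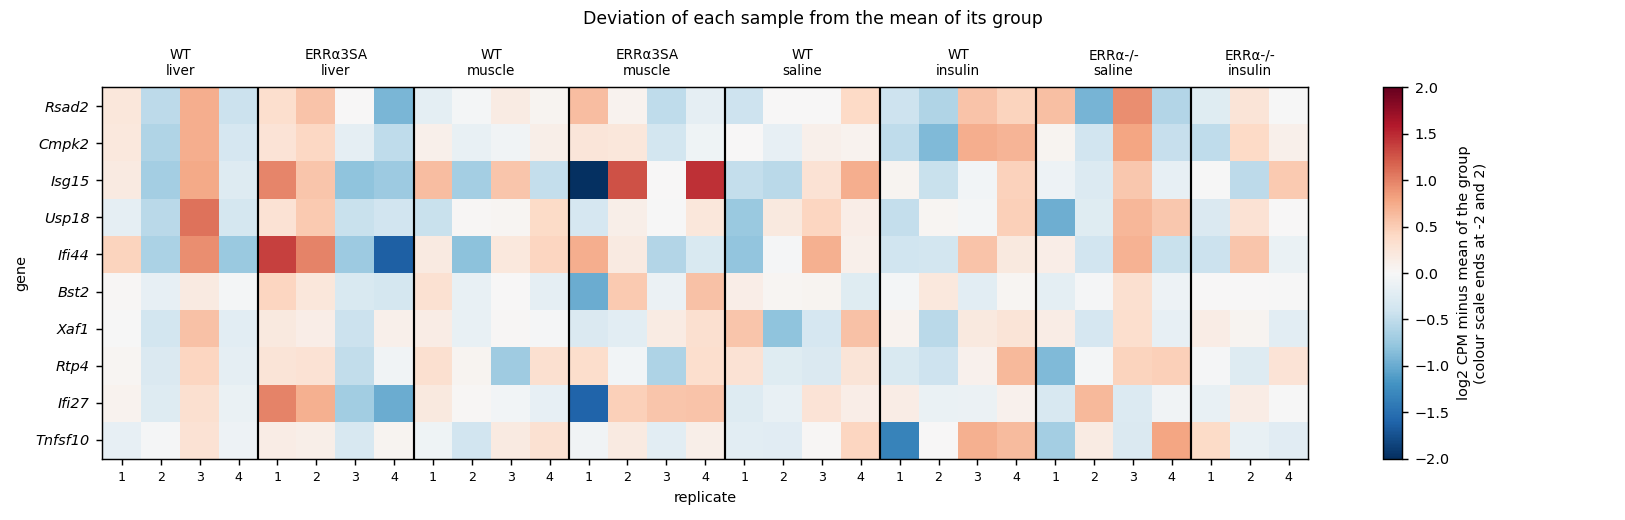
Log2 CPM of each gene minus the mean of its group in each sample, colours ending at -2 and 2. ERRα3SA livers 1 and 2 lie above the group mean for all 10 genes and livers 3 and 4 below it for most, and ERRα3SA muscle 1 is high for Rsad2 and Ifi44 and low for Isg15, Ifi27 and Bst2.

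Ranked by r with the mean deviation of the 10 over the 23 livers, the closest of 11928 other genes were Apol9b (0.920), Apol9a (0.898), Ifit1 (0.878), Shisa5 (0.848), Irf7 (0.844), Cd47 (0.841), Gbp3 (0.837), Ifit3 (0.824), Ube2l6 (0.819) and Lgals9 (0.782). The genes ranked were those tested both in ERRα3SA liver and for insulin in WT liver, with predicted genes (Gm and Rik symbols) left out. Of the 10 closest, 7 are on the fixed lists, all but Apol9b, Apol9a and Cd47. Over the 8 muscles their r ran from -0.320 (Ifit1) to 0.848 (Lgals9), with 0.815 for Apol9b, and without ERRα3SA replicate 1 from -0.0083 (Cd47) to 0.944 (Irf7), with 0.853 for Ifit1 and 0.561 for Apol9b. Apol9b had 2 to 14 reads per muscle, so its muscle values lie near the floor. In ERRα3SA liver, Irf7 (+1.23, p 0.0173), Gbp3 (+1.16, p 0.0171), Apol9a (+0.95, p 0.0320), Ifit3 (+0.90, p 0.0227) and Ifit1 (+0.85, p 0.0365) were called higher and the other 5 were not.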

How the data were processed

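Counts of reads per gene were deposited for both experiments. The authors prepared NEBNext Ultra libraries, aligned the read pairs to the mouse genome (mm10) with STAR, had STAR count the reads, and left the counts without normalization; their own tests used DESeq2. The 10 genes and the lists were chosen with earlier results of these data known. Identifiers were matched to GENCODE symbols for 54495 of 54532 in the ERRα3SA table and 34490 of 35275 in the insulin table, and 0 columns of values were left unmapped.

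Fits used edgeR 4.0.16 in R 4.3.3 (TMM factors, genes kept by filterByExpr, quasi-likelihood test) with the groups compared and no covariate, and 4 groups for an interaction. To be called, a gene had to change by a factor of 1.2 or more with an unadjusted p under 0.05, and p values were adjusted by Benjamini-Hochberg over all genes tested. CPM used TMM library sizes, and log2 CPM a prior count of 2. Near copies were sought at 90% identity over at least 250 bases. The procedure was tested on simulated data.

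Named genes are the 10, Esrra, from each list the called genes of the ERRα3SA comparisons (at most 3 per direction, by size), from each marker list the most abundant and any called gene, and the 10 genes most like the mean of the 10 over the livers. Some items that this rule would name are not reported here. Any other name is said to be a choice made with its values in view. The lists were ISG15 conjugation, interferon ligands, receptors with JAK kinases and ISGF3, negative regulators of JAK-STAT, other interferon-stimulated genes, TRAIL receptors and death partners, CTP supply and iron-sulfur loading, and cell type markers.

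Alternatives were DESeq2 1.42.0, RLE factors, library size alone, no filter on low counts, the mitochondrial genome left out, all groups fitted together, the replicate number as a block, a liver and a muscle of the same number taken as 1 mouse, and each sample left out in turn. Those for the lists, the muscle correlations without ERRα3SA replicate 1 and the counts without Rsad2 and Cmpk2 were added after the data had been seen.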

Additional observations from a re-analysis of the deposited data

Results flagged for a closer look

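Of 70 groups of 4 samples looked at for a sample far from the rest, 3 held one, and chance gives about 1 in 20 groups. Isg15 in ERRα KO saline livers had 4.17 CPM in replicate 3 and 2.35 to 2.65 CPM in the other samples. Usp18 in WT livers of the ERRα3SA experiment had 22.4 CPM in replicate 3 and 7.20 to 9.24 CPM in the others. Ifi27 in ERRα3SA muscles had 5.41 CPM in replicate 1 and 22.96 to 24.6 CPM in the others. The interaction of genotype and insulin in liver was called for Bst2 alone, 1 of the 10 genes, with a log2 difference of -0.52 (SE 0.19, adjusted p 0.500, edgeR). The same rule called 8.79% of all genes, so a difference between the genotypes is not shown. What lies behind these values was not tested.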

How the results depend on the processing

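Of 630 log2 fold changes of the 10 genes under alternatives that kept all samples, 588 kept their direction and side of the threshold, 18 lost the call, 16 gained it and 8 changed sign. With 1 sample left out, 715 of 850 kept both, 66 lost the call, 18 gained it and 51 changed sign. For insulin in ERRα KO, 5 genes were called with no filter on low counts. With the replicate block the counts of called genes were 3 and 2 for insulin in WT and KO, 3 and 5 for KO against WT after saline and insulin, 1 for the interaction, 6 and 2 for ERRα3SA in liver and muscle, 0 for muscle minus liver and 10 for WT muscle against liver, and no comparison had a correlation over 0.1 in every pair.

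With 1 sample left out the counts ran from 2 to 3 and 1 to 5 for insulin in WT and KO, 1 to 3 and 2 to 7 for KO against WT after saline and insulin, 1 to 1 for the interaction, 3 to 10 and 1 to 5 for ERRα3SA in liver and muscle, 0 to 2 for muscle minus liver and 9 to 10 for WT muscle against liver. Except without ERRα3SA muscle replicate 1, the share of all genes called in these fits is not given, so the counts cannot be read against it.

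Changes of sign under the replicate block were Xaf1 with insulin in WT (0.011), Xaf1 in KO against WT after saline (0.0098), Tnfsf10 in KO against WT after insulin (0.20), Cmpk2 in the interaction (0.19) and Rtp4 in muscle minus liver (0.028). In muscle minus liver, Isg15 had -0.0058 in DESeq2. The log2 fold change of Rtp4, ERRa3SA effect, muscle minus liver, was 0.0023 with no filter on low counts and 0.0064 with the mitochondrial genome left out. The cause was not tested.

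With 1 sample left out, values that changed sign ran as follows. For insulin in WT, Rsad2 ran from -0.28 to 0.10, Isg15 from -0.27 to 0.19 and Xaf1 from -0.28 to 0.14, and for insulin in KO, Ifi27 ran from -0.019 to 0.37. For KO against WT after saline, Rsad2 ran from -0.42 to 0.18, Isg15 from -0.39 to 0.13, Ifi44 from -0.15 to 0.44, Bst2 from -0.17 to 0.0087 and Xaf1 from -0.29 to 0.13, and after insulin Tnfsf10 ran from -0.46 to 0.059. In the interaction, Cmpk2 ran from -0.38 to 0.19 and Ifi27 from -0.12 to 0.25. In ERRα3SA muscle, Usp18 ran from -0.047 to 0.23. In muscle minus liver, Rsad2 ran from -0.012 to 0.50, Isg15 from -0.31 to 0.42, Bst2 from -0.082 to 0.30, Rtp4 from -0.20 to 0.14 and Tnfsf10 from -0.22 to 0.041. None of these values was called with all samples.

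Groups of 3 or 4 samples limit what can be told apart, and each of the 10 genes had fewer than 100 reads in at least 1 sample, among them Tnfsf10 (22 after insulin in WT) and Rsad2 (72 in WT muscle). Values of Rtp4, Usp18 and Isg15 depend on how reads in shared stretches were assigned, which is not stated.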
